A study of Mus musculus with 42 samples.

Results

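The interferon-induced GTPases examined here were 10 mouse genes, the guanylate-binding proteins Gbp2, Gbp3, Gbp5, Gbp6 and Gbp7 and the immunity-related GTPases Irgm1, Igtp, Iigp1, Tgtp1 and Tgtp2. They were taken by symbol from a named list of interferon-induced GTPases. The list was drawn up with results of these data known, and it is treated as selected on lower counts in 5+3 than in vehicle mice on the BCAA-free diet. All 10 were present in both count tables, among 55487 gene identifiers, and all 10 passed the filter on low counts in mRNA, in footprints and in the joint fit of both. The libraries came from bone marrow cells of mice with MLL-AF9 acute myeloid leukaemia, in which Mll is fused to Af9. From each of 21 mice, 1 lysate gave both a Smart-seq2 mRNA library and a footprint library, made from the mRNA pieces that ribosomes shield from RNase. The 4 groups were 7 mice on the diet free of branched-chain amino acids (BCAA-free) given 5+3 chemotherapy, 5 mice on that diet given vehicle, 4 mice on the amino acid (AA) diet given 5+3, and 5 mice on the AA diet given vehicle.

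5+3 was cytarabine at 100 mg/kg once a day for 5 days with doxorubicin at 3 mg/kg on the first 3 of those days, and the vehicle was PBS. All recipients were male, 8 to 10 weeks old and not preconditioned, and each received cells of 1 leukaemia, taken from a single terminally ill mouse, grown in culture and labelled WT in genotype. That leukaemia expressed GFP under a promoter named for ubiquitin and luciferase under the β-actin promoter. Mice were killed at the point of maximum response, and viable GFP+ cells were sorted after lysis of red cells. The 5 AA vehicle mice carry a suffix B in their sample descriptions that no other group has, and whatever it marks cannot be told apart from that group.

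Guanylate-binding proteins and immunity-related GTPases are enzymes that cells make in response to interferon, above all interferon-γ. Interferon-γ binds a receptor of Ifngr1 and Ifngr2 chains, the kinases Jak1 and Jak2 pass the signal on, and promoters receive it at gamma-activated sites (GAS) and at interferon-stimulated response elements (ISRE), which Irf1 binds. The proteins assemble on membranes that enclose bacteria or parasites, disrupt them and help to start inflammasome signalling. Blood-forming cells of the bone marrow respond to interferon too, and transcripts of these genes are a common readout of the interferon a cell has received.

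On GRCm38 in RefSeq, 4 of the guanylate-binding protein genes lie in a cluster on chromosome 3. They are Gbp5 (ENSMUSG00000105504, 142496934 to 142522344), Gbp7 (ENSMUSG00000040253, 142530336 to 142550151), Gbp3 (ENSMUSG00000028268, 142560016 to 142573213) and Gbp2 (ENSMUSG00000028270, 142620663 to 142638008). Gbp6 (ENSMUSG00000104713) lies in the family's other cluster, on chromosome 5 at 105270702 to 105295871. The regulator Irgm1 (ENSMUSG00000046879, 48865245 to 48871420) shares a stretch of chromosome 11 with the effectors Tgtp1 (ENSMUSG00000078922, 48985329 to 48992246) and Tgtp2 (ENSMUSG00000078921, 49057196 to 49064212). Igtp (ENSMUSG00000078853, 58199556 to 58207592) lies farther along chromosome 11, and Iigp1 (ENSMUSG00000054072) stands apart from both clusters on another chromosome.

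Promoters are shown because the members have the interferon response in common by their choice, while their promoter letters were not part of it. RefSeq promoters on build GRCm38.p6 were found for 8 of the 10 genes. The 250 bases before each start site were searched on both strands for ISRE, spelled GAAA, any 2 bases and GAAA, and for GAS, spelled TTC, any 3 bases and GAA. All 8 genes held an ISRE, a match found in 2.98% of 32851 mouse promoters of that length. A GAS match was present in 5 of the 8, Gbp5, Gbp7, Tgtp1, Tgtp2 and Igtp, and in 7.02% of all promoters, while 0.332% of all promoters held both. Both counts are per gene over any of its starts, while the shares are per promoter. The 8 are also not independent, since Tgtp1 and Tgtp2 are near copies. Each line gives the 180 bases before the start site, 5′ to 3′ on the gene's own strand, with ISRE and GAS matches in capitals. Gbp5 (chr3:142496754-142496933, plus strand), Gbp2 (chr3:142620483-142620662, plus strand) and Gbp3 (chr3:142559864-142560043, plus strand, the first of its 2 annotated starts) are shown for the guanylate-binding proteins, since Gbp5 had the largest and Gbp3 the smallest diet difference among the genes of this cluster in 5+3 footprints. Tgtp1 (chr11:48992247-48992426, minus strand), Tgtp2 (chr11:49064213-49064392, minus strand) and Igtp (chr11:58199376-58199555, plus strand) are shown for the immunity-related GTPases.
Gbp5: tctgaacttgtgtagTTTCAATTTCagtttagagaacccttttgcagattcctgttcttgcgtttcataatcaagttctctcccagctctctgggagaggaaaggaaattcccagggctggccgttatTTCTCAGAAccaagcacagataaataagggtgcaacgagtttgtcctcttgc
Gbp2: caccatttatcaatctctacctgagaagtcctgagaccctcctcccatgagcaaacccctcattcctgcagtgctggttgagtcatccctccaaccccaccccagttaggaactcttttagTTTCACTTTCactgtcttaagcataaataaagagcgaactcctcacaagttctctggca
Gbp3: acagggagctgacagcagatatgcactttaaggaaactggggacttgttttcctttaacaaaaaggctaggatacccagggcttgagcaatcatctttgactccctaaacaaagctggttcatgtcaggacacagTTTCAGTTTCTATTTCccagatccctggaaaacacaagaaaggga
Tgtp1: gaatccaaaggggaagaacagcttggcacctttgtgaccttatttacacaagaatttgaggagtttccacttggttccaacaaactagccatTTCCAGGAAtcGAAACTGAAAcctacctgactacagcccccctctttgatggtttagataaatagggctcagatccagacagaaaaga
Tgtp2: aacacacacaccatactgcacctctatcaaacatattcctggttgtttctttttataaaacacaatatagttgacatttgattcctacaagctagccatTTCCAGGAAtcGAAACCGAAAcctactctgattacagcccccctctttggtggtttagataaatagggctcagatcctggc
Igtp: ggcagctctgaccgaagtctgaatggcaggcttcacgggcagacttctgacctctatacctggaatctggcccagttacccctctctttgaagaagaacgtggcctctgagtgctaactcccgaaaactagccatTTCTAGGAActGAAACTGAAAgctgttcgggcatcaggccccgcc
In Tgtp1, Tgtp2 and Igtp the GAS match stood 2 bases ahead of the ISRE match. The ISRE match began 77 bases before the start in Tgtp1, 70 in Tgtp2 and 34 in Igtp. In Gbp3 the capitals are 2 overlapping ISRE matches, and the promoter of its second start held neither motif. Gbp2 held an ISRE match, from 59 to 50 bases before its start, and no GAS match in these 250 bases. These matches describe letters and not binding.

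mRNA libraries held 30996200 to 70437713 counted reads (median 48804734) and footprint libraries 2697092 to 8863472 (median 4683466). Values are counts-per-million levels (CPM), relative to library totals on the TMM scale, with SD over mice. Because no gene lengths were used, levels were compared between groups and not between genes. In 4 mice, BCAA-free vehicle mice 1, 2 and 5 and BCAA-free 5+3 mouse 7, the mRNA libraries stood apart from the rest on the first principal component in an earlier look at these data, and counts without them are given beside the results they change. Replicates are separate mice that share 1 leukaemia. A difference in a bulk library can come from fewer cells of a type or from less RNA per cell, which cannot be told apart here.

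In 5+3 mice, footprints of all 10 GTPases were lower on the BCAA-free diet than on the AA diet (edgeR quasi-likelihood test, Benjamini-Hochberg adjusted p under 0.05), where 15.8% of 15723 genes were lower. In each of the 10 genes every BCAA-free 5+3 mouse lay below every AA 5+3 mouse, a pattern that 10.2% of all genes showed in that direction. The genes' median log2 difference was -3.81, against 0.00 over all genes, and it ranged from -4.08 for Iigp1 to -0.70 for Gbp3. These counts describe genes proposed with results known, and the BCAA-free 5+3 mice also enter the chemotherapy comparison on that diet, so they are not independent evidence of direction.

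Among the guanylate-binding proteins, Gbp2, which is recruited to pathogen vacuoles and to bacteria, had 2.18 footprint CPM in the lowest, 4.72 in the median and 22.2 in the highest BCAA-free 5+3 mouse, against 58.3, 132, 139 and 203 CPM in AA 5+3 mice. The highest BCAA-free mouse had well under the lowest AA mouse's level, a log2 difference of -3.75 ± 0.68 (SE, adjusted p = 0.000673 by edgeR's quasi-likelihood test). Gbp5, which promotes NLRP3 inflammasome assembly, ran from 0.29 through 1.52 to 4.59 CPM in BCAA-free 5+3 mice, against 19.6, 34.9, 40.8 and 58.9 CPM in AA 5+3 mice. The gap between the highest BCAA-free and the lowest AA mouse was wider for Gbp5 than for Gbp2 as a ratio, and the log2 difference was -4.04 ± 0.67 (edgeR adjusted p = 0.000332). Gbp6, of the chromosome 5 cluster, ran from 0.237 through 1.7 to 3.4 CPM in BCAA-free 5+3 mice, against 11.7, 27.5, 29 and 44.9 CPM in AA 5+3 mice, with a log2 difference of -3.87 ± 0.67 (edgeR adjusted p = 0.000481). Gbp7, which in mice takes part in the oxidative and autophagic defence of macrophages, ran from 13.5 through 16.7 to 32.4 CPM in BCAA-free 5+3 mice, against 50.6, 71.1, 71.9 and 101 CPM in AA 5+3 mice. Its difference was smaller, -1.90 ± 0.33 (edgeR adjusted p = 0.000512), with no BCAA-free 5+3 mouse under 13.5 CPM. Gbp3 had the smallest difference of the 10, with 22.8, 39.3 and 47.2 CPM as the lowest, median and highest BCAA-free 5+3 values and 50.6, 56.9, 61.4 and 74.7 CPM in AA 5+3 mice. For Gbp3 the 2 groups were separated by only 47.2 to 50.6 CPM, and the log2 difference of -0.70 ± 0.23 (edgeR adjusted p = 0.032) was the single one of the 10 lost under some alternatives, for example without the 4 mice that stood apart (adjusted p = 0.0534).

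**Figure D1:**
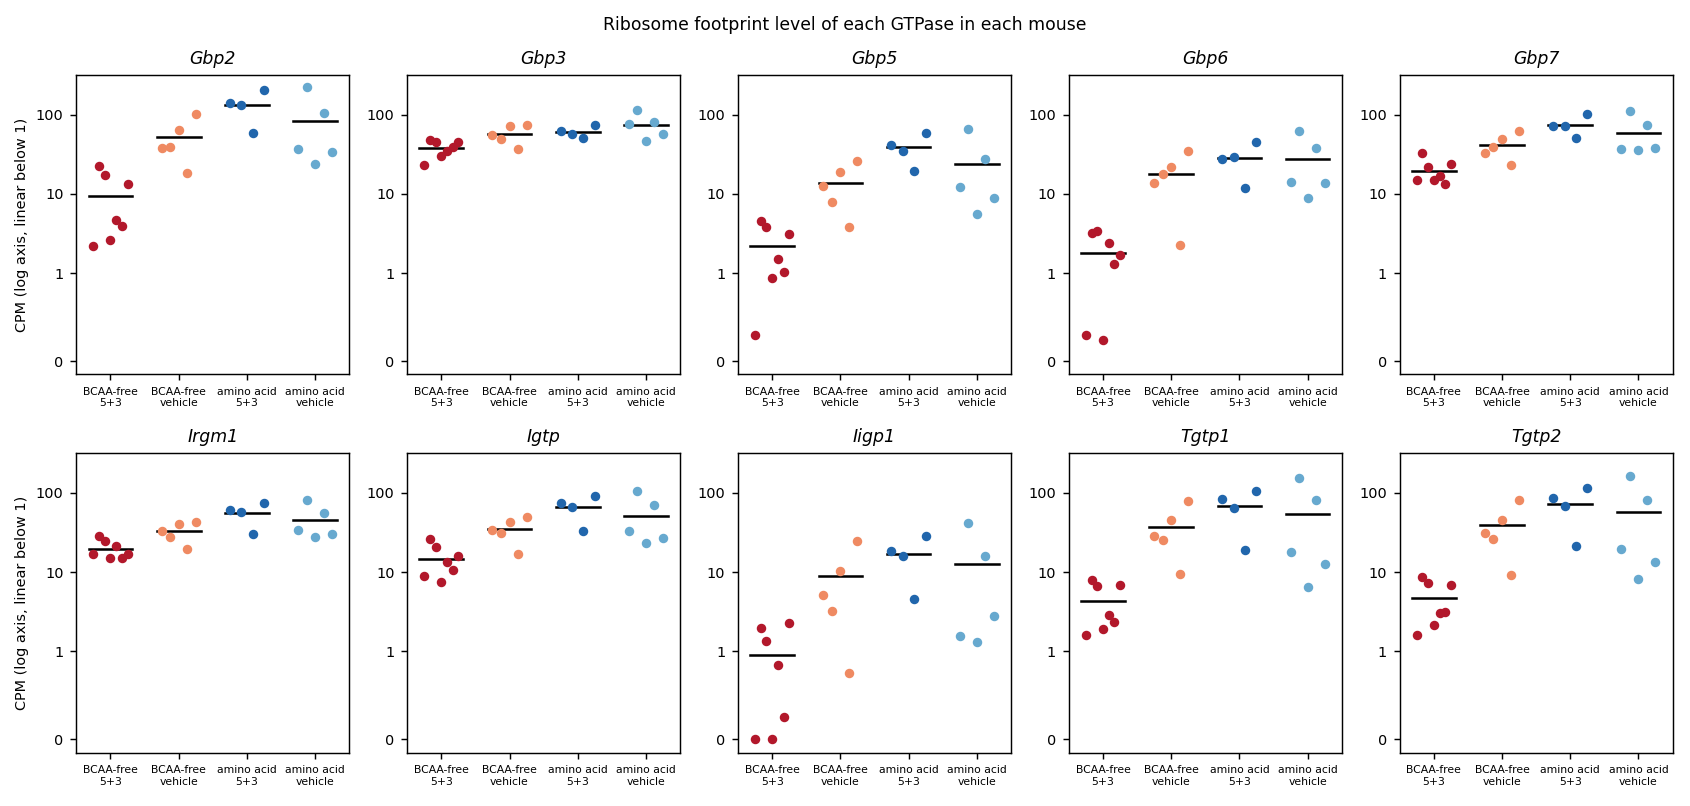
Ribosome footprint level of each of the 10 GTPases (CPM, log axis that is linear near 0) in each mouse, with groups from left to right BCAA-free 5+3 (7 mice), BCAA-free vehicle (5), AA 5+3 (4) and AA vehicle (5). Points are mice and bars are group means; in every panel the BCAA-free 5+3 points lie below the AA 5+3 points, while the AA vehicle points spread widely, from 23.9 to 219.8 CPM for Gbp2.

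Among the immunity-related GTPases, Irgm1, a regulator that sits on host membranes and holds the effector GTPases inactive there, had 15.2, 17 and 28.6 footprint CPM as the lowest, median and highest BCAA-free 5+3 values, against 30.2, 56.7, 60.9 and 75.2 CPM in AA 5+3 mice. The groups nearly met, at 28.6 and 30.2 CPM, and the log2 difference was -1.48 ± 0.30 (edgeR adjusted p = 0.0014). Igtp, also known as Irgm3 and of the same regulatory class, had 7.59, 13.3 and 26.5 CPM in BCAA-free 5+3 mice, against 33.2, 65.9, 75.1 and 90 CPM in AA 5+3 mice, a log2 difference of -2.13 ± 0.42 (edgeR adjusted p = 0.00131). Both regulators had smaller log2 differences than the effectors Iigp1, Tgtp1 and Tgtp2, an order between genes that was not tested. Iigp1 (Irga6, chromosome 18, 60373616 to 60392634), an effector that loads onto parasite vacuoles, was not counted in BCAA-free 5+3 mice 1 and 4, whose 3-count floors were 0.435 and 0.712 CPM. The other 5 BCAA-free 5+3 mice reached at most 2.27 CPM, against 4.63, 16.1, 18.2 and 28.4 CPM in AA 5+3 mice, and the fitted log2 difference was -4.08 ± 0.99 (edgeR adjusted p = 0.00532). Tgtp1, an effector of the same kind and 1 of 2 near copies (Irgb6), had 1.6, 2.86 and 7.92 CPM in BCAA-free 5+3 mice, against 19.1, 64.3, 84.1 and 106 CPM in AA 5+3 mice. Tgtp2, the second copy, had 1.6, 3.1 and 8.73 CPM in BCAA-free 5+3 mice, against 21.2, 68.9, 85.6 and 114 CPM in AA 5+3 mice. The log2 differences of the pair were -3.94 ± 0.79 and -3.91 ± 0.77 (edgeR adjusted p = 0.00142 and 0.00129), and their reads are not independent, as given with the copies.

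Set against vehicle on the same BCAA-free diet, 5+3 mice had lower footprints of all 10 genes, with log2 differences from -3.22 ± 0.67 (SE) for Gbp6 to -0.61 ± 0.22 for Gbp3 and a median of -2.49. This comparison is treated as the one that guided the choice of the genes, so its values are a description and no test of the genes is drawn from it. By the same edgeR threshold 8 of the 10, all but Gbp3 and Irgm1, counted as lower, and 11.9% of all genes did. Gbp2 in BCAA-free vehicle mice was at 18.3, 38.1, 38.6, 63.5 and 102 CPM, so the highest 5+3 mouse, at 22.2 CPM, reached into the vehicle range. Gbp6 was at 2.26, 13.9, 17.6, 21.8 and 34.4 CPM in BCAA-free vehicle mice and overlapped 5+3 through a single vehicle mouse. The groups did not overlap for Tgtp1, at most 7.92 CPM in 5+3 and at least 9.54 CPM in vehicle mice, nor for Tgtp2, at most 8.73 and at least 9.29 CPM, a pattern in 4.74% of all genes in that direction. Of the 4 mice that stood apart, 3 are BCAA-free vehicle mice; without the 4, none of the 10 genes counted as lower, 2.39% of 16545 genes passed in either direction, and the genes' median log2 difference was -2.28, with 2 BCAA-free vehicle mice left. Leaving out single mice gave 3 of 10 without BCAA-free vehicle mouse 5, and 5 of 10 without BCAA-free vehicle mouse 3 or without any 1 of BCAA-free 5+3 mice 1, 4, 5 and 6. Shares of all genes in these fits are not given, so these changes may not be particular to the 10.

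On the AA diet none of the GTPases passed the test of 5+3 against vehicle. Footprints of 9 of the 10 were higher in 5+3 than in vehicle mice, Gbp3 being the exception, but with log2 differences of -0.28 to 0.76 (median 0.38, against -0.02 over all genes), while 6.61% of all genes passed the edgeR test. The spread among AA vehicle mice was wide. Gbp2 had 58.3 to 203 CPM in AA 5+3 mice, against 23.9, 33.6, 37.1, 103 and 219.8 CPM in AA vehicle mice, a log2 difference of 0.70 ± 0.68. Tgtp1 had 19.1 to 106 CPM in AA 5+3 mice, against 6.46, 12.7, 17.8, 80.6 and 155 CPM in AA vehicle mice, a log2 difference of 0.37 ± 0.74. In each of the 10 genes the 4 AA 5+3 mice lay within or overlapped the vehicle range. The median of 0.38 was 0.98 without AA vehicle mouse 2 and 0.14 without AA 5+3 mouse 4, and between 0.18 and 0.63 without AA 5+3 mouse 3 or any other AA vehicle mouse. None of the 10 had an unadjusted p under 0.05 in this comparison, and none passed with DESeq2 or limma-voom, while 3465 of the 15723 genes had an unadjusted p under 0.05.

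Without chemotherapy none of the GTPases passed the test between diets. Footprint log2 differences of BCAA-free vehicle from AA vehicle mice ran from -0.70 ± 0.62 for Gbp5 to -0.37 ± 0.24 for Gbp3, all 10 below 0 and with a median of -0.50, while 2.04% of all genes passed the edgeR test. None had an unadjusted p under 0.05 (2750 of all genes did), and none passed with DESeq2 or limma-voom. Gbp5 had 3.76, 7.94, 12.5, 18.9 and 26.2 CPM in BCAA-free vehicle mice, against 5.51, 8.8, 12.2, 27.2 and 66.3 CPM in AA vehicle mice. Iigp1 had 0.753, 3.22, 5.17, 10.4 and 24.9 CPM in BCAA-free vehicle mice, against 1.33, 1.58, 2.75, 16 and 41.2 CPM in AA vehicle mice. The ranges overlapped in every gene, and the standard errors reached 0.85 for Iigp1. The median of -0.50 rested on single mice: it was -0.01 without AA vehicle mouse 2, -0.29 without BCAA-free vehicle mouse 4, -0.92 without BCAA-free vehicle mouse 5, -0.76 without AA vehicle mouse 3 and -0.91 without the 4 mice that stood apart.

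The difference between these responses was tested as the interaction of diet and 5+3, the footprint response to 5+3 on the BCAA-free diet minus that on the AA diet. It contains the comparison that is treated as having guided the choice of the genes. Calls of the 10 are therefore a description and not independent evidence. The interaction was below 0 in all 10 genes, from -3.70 for Iigp1 to -0.33 for Gbp3, with a median of -3.22. The interaction counted as lower by the edgeR threshold for Gbp5 (-3.35 ± 0.93 on the log2 scale, adjusted p = 0.0382) and Gbp6 (-3.33 ± 0.90, adjusted p = 0.0348), 2 of 10 where 3.8% of all genes passed in that direction. Gbp2 (-3.11 ± 0.95, edgeR adjusted p = 0.0554), Tgtp2 (-3.41 ± 1.06, 0.0592) and Tgtp1 (-3.44 ± 1.08, 0.0617) did not pass, and neither did the other 5. Some markers of other cells also had interactions below 0 in the same fit. Of 7 erythroid genes 5 passed below 0, led by Slc4a1, an anion exchanger of red cells (-4.59 ± 0.65, edgeR adjusted p = 0.000359), and of 9 neutrophil genes Mmp9 did (-2.09 ± 0.62, adjusted p = 0.0497), as did the single T and NK cell gene tested, Nkg7 (-1.12 ± 0.31, adjusted p = 0.0291). Nkg7 had 72598 mRNA counts in all, and no other gene of its list had more than the 1015 of Cd2. Whether it marks T or NK cells here was not tested. The part of these markers in the GTPase interaction was not tested either. The count of 2 GTPases changed when single mice were left out, in fits whose shares of all genes are not given. It was 9 of 10 without AA vehicle mouse 2, 4 without BCAA-free 5+3 mouse 2, and 1 without any 1 of BCAA-free 5+3 mice 1, 5 and 7, BCAA-free vehicle mouse 1 and AA vehicle mice 1 and 4. None of the 10 passed without any 1 of BCAA-free 5+3 mice 4 and 6, BCAA-free vehicle mice 3 and 5, AA 5+3 mice 1, 2 and 4, and AA vehicle mice 3 and 5, nor without the 4 mice that stood apart.

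**Figure D2:**
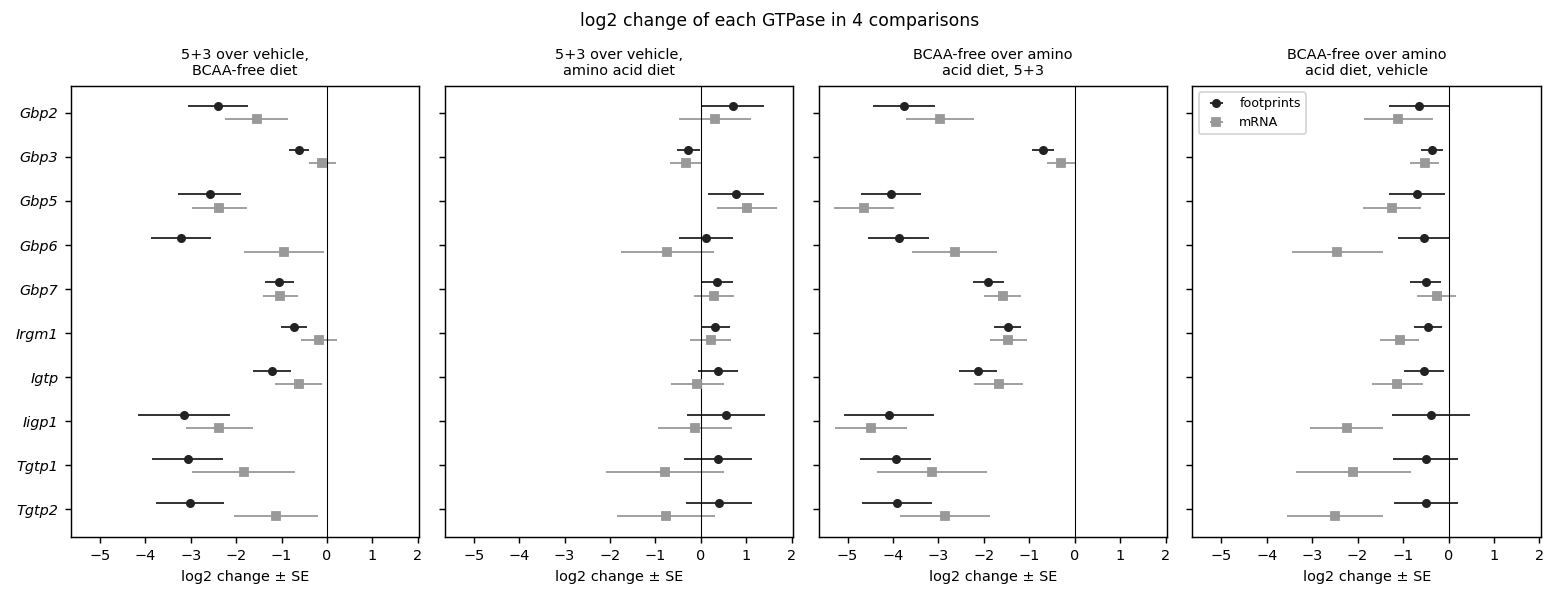
Log2 differences (points) with standard errors (bars) of the 10 GTPases in footprints and in mRNA for 4 comparisons: 5+3 against vehicle on the BCAA-free diet, 5+3 against vehicle on the AA diet, BCAA-free against AA diet in 5+3 mice, and BCAA-free against AA diet in vehicle mice. In 5+3 mice the diet differences in footprints run from -0.70 for Gbp3 to -4.08 for Iigp1, while 5+3 against vehicle on the AA diet lies on both sides of 0.

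mRNA gave the same direction with fewer calls. In 5+3 mice all 10 genes were below 0 for the BCAA-free against the AA diet, with a median log2 difference of -2.75, and 3 passed the edgeR test where 0.682% of all genes were lower. Gbp5 had 0.129, 0.364 and 1.37 mRNA CPM as the lowest, median and highest BCAA-free 5+3 values, against 10.5, 16.2, 17.1 and 17.3 CPM in AA 5+3 mice, a log2 difference of -4.63 ± 0.66 (edgeR adjusted p = 0.000533). Iigp1 had 0.237, 0.804 and 2.93 CPM in BCAA-free 5+3 mice, against 4.99, 21.4, 31.1 and 33.1 CPM in AA 5+3 mice, a log2 difference of -4.48 ± 0.80 (edgeR adjusted p = 0.0045). Every BCAA-free mouse was below every AA mouse in both genes, and also in Gbp2 and Gbp7, a pattern in 2.65% of all genes in that direction. Gbp2 had 1.25, 6.08 and 25.8 CPM in BCAA-free 5+3 mice, against 30.5, 53.1, 56.4 and 127 CPM in AA 5+3 mice, a log2 difference of -2.97 ± 0.74 (edgeR adjusted p = 0.047) that no longer passed in 14 of 21 fits that each left out 1 mouse. Gbp7 fell just short at -1.58 ± 0.41 (edgeR adjusted p = 0.0562), and its groups nearly met, at most 43.5 CPM in BCAA-free and at least 46.9 CPM in AA 5+3 mice. The remaining 6 did not pass, with overlapping groups, log2 differences from -3.14 ± 1.20 for Tgtp1 to -0.30 ± 0.32 for Gbp3, and edgeR adjusted p from 0.0819 for Irgm1 to 0.765 for Gbp3.

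**Figure D3:**
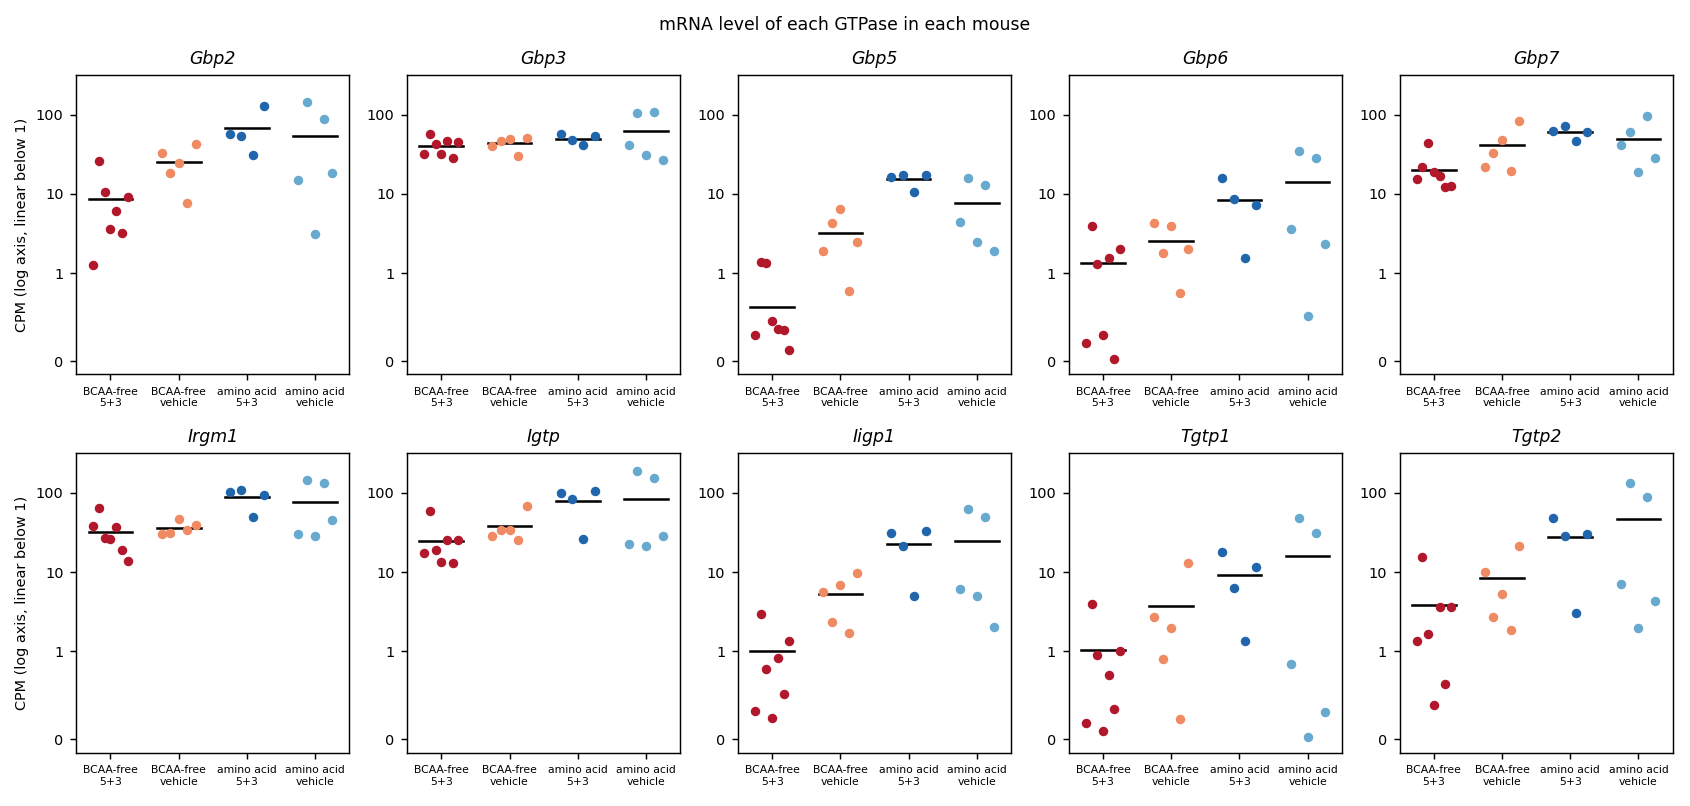
mRNA level of each of the 10 GTPases (CPM, log axis that is linear near 0) in each mouse, with groups from left to right BCAA-free 5+3 (7 mice), BCAA-free vehicle (5), AA 5+3 (4) and AA vehicle (5). Points are mice and bars are group means; Gbp5 and Iigp1 show the widest gap between BCAA-free 5+3 and AA 5+3 mice, while Gbp3 overlaps in all groups.

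In the other mRNA comparisons few or none of the genes passed. With 5+3 against vehicle on the BCAA-free diet, given as a description, the 10 log2 differences ran from -2.37 to -0.10 with a median of -1.07, and Gbp5 (-2.37 ± 0.60) and Iigp1 (-2.37 ± 0.73) counted as lower where 4.23% of all genes did. That pair was reduced to 1 without any 1 of BCAA-free 5+3 mice 1, 4 and 6, BCAA-free vehicle mice 1 and 5 and AA 5+3 mice 1, 2 and 4, and to 0 without BCAA-free 5+3 mouse 5, BCAA-free vehicle mouse 2 or 3, or the 4 mice that stood apart. Shares of all genes in those fits are not given. On the AA diet the 5+3 differences ran from -0.79 to 1.01, and 0 of 10 passed where 0.0616% of all genes did. None of these 10 had an unadjusted p under 0.05, and 0 passed with DESeq2 or limma-voom. In vehicle mice the diet differences ran from -2.50 ± 1.06 for Tgtp2 to -0.26 ± 0.42 for Gbp7, and no gene of the 21114 tested passed by edgeR, a share of 0%, although 4 of the 10 and 2363 of all genes had an unadjusted p under 0.05. The interaction passed for none of the 10 where 0.0758% of all genes passed by edgeR. An unadjusted p under 0.05 was found in 2 of the 10 and in 2545 of all genes, and 1 of the 10 passed with DESeq2.

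The ratio of footprints to mRNA, called translational efficiency, was tested in 1 joint fit of all 42 libraries with the mouse as a block. None of the 10 genes passed in any of the 4 comparisons by edgeR. In 5+3 against vehicle on the BCAA-free diet, where 7.45% of 12097 genes passed, the genes' log2 differences ran from -1.86 for Gbp6 to 0.03 for Gbp7 with a median of -0.44, against -0.11 over all genes. For the BCAA-free against the AA diet in 5+3 mice, where 0.00827% of all genes passed, they ran from -1.20 ± 0.77 for Gbp6 to 0.65 ± 0.51 for Gbp5, with a median of -0.34. The other two comparisons, in which 0% of genes passed, had medians of -0.09 for 5+3 on the AA diet and 0.43 for the diet in vehicle mice. The counts of the 10 with an unadjusted p under 0.05 were 3, 1, 0 and 2 in the same order. Over all 12097 genes the counts were 3603, 882, 333 and 1083, so the 3 of 10 lay near the share of all genes. With limma-voom 1 of the 10 passed in 5+3 against vehicle on the BCAA-free diet, and 0 in the rest. Per-copy values of Tgtp1 and Tgtp2 in this ratio carry the uncertainty of shared reads.

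By their means the 4 groups took the same order in nearly every gene. Mean footprints ran AA 5+3, AA vehicle, BCAA-free vehicle and BCAA-free 5+3 from high to low in 9 of the 10 genes, and in Gbp3 the first 2 changed places. The order of the vehicle groups held for means and not for medians: the median footprint level was higher in BCAA-free vehicle than in AA vehicle mice in 8 of the 10 genes, for example 28.3 against 17.8 CPM for Tgtp1, and AA vehicle mice 2 and 4 held the highest values of their group in the sum of the 10. Irgm1 averaged 19.8 ± 5.18 CPM in BCAA-free 5+3, 33 ± 9.49 in BCAA-free vehicle, 55.8 ± 18.8 in AA 5+3 and 45.7 ± 22.7 CPM in AA vehicle mice (SD, n = 7, 5, 4 and 5). Tgtp1 averaged 4.29 ± 2.71 CPM in BCAA-free 5+3, 37.3 ± 26 in BCAA-free vehicle, 68.4 ± 37 in AA 5+3 and 54.6 ± 63.8 CPM in AA vehicle mice, with the same numbers of mice. Neighbouring groups overlapped, except BCAA-free 5+3 and BCAA-free vehicle for Tgtp1 and Tgtp2, and the step between AA 5+3 and AA vehicle, like that between AA vehicle and BCAA-free vehicle, passed the test in none of the 10. In mRNA the same order of means held in 4 genes, Gbp2, Gbp5, Gbp7 and Irgm1, and in the other 6 the AA vehicle mean was above the AA 5+3 mean. Median mRNA was higher in AA 5+3 than in AA vehicle mice in all 10 genes, for example 29.5 against 7.08 CPM for Tgtp2.

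Within groups, mice differed by large factors, and by the same mice from gene to gene. In footprints AA vehicle mouse 2 was the highest and mouse 3 the lowest of its group in all 10 genes, BCAA-free vehicle mouse 5 the highest and mouse 4 the lowest, and AA 5+3 mouse 4 the highest and mouse 3 the lowest. The summed footprints of the 10 genes were 69.2, 101 and 183 CPM in the lowest, median and highest BCAA-free 5+3 mouse, and 141, 285 and 575 CPM in BCAA-free vehicle mice. They were 299, 630.2 and 897 CPM in AA 5+3 mice and 187, 281 and 1116 CPM in AA vehicle mice. The median vehicle mice of both diets thus had nearly equal sums, and AA vehicle mice 2 and 4 stood at the top of their group. Summed mRNA ran from 77.5 through 115 to 255 CPM in BCAA-free 5+3, from 121 through 178 to 332 in BCAA-free vehicle, from 214 through 476 to 540.2 in AA 5+3 and from 113 through 172 to 934 CPM in AA vehicle mice. Both library kinds of a mouse often ranked alike: in 26 of 40 combinations of gene and group the same mouse was the highest in footprints and in mRNA, and in 28 of 40 the same mouse was the lowest. The groups differed in this, with the lowest mouse the same in 2 of 10 genes in BCAA-free 5+3 and the highest the same in 4 of 10 in AA 5+3 mice. Across the 21 mice, footprint profiles of any pair of the 10 genes correlated at r of 0.863 to 0.999 (median 0.959 over 45 pairs), and at a median of 0.931 after group means were removed, which describes points that share libraries.

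**Figure D4:**
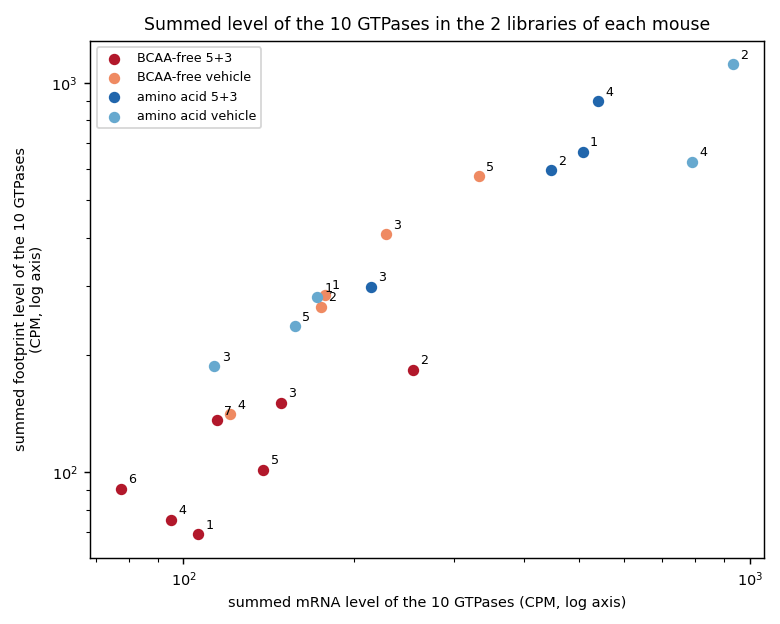
Summed level of the 10 GTPases in each mouse (CPM, log axes), with footprints against mRNA and 1 point per mouse, marked by group. The 7 BCAA-free 5+3 mice sit between 69.2 and 183 CPM in footprints, and 2 AA vehicle mice stand far above the other 3, up to 1116 CPM.

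Several of these genes have near copies, and the footprint reads are short. Tgtp1 and Tgtp2 counts agreed almost read for read in footprints, with Tgtp2 at 0.974 to 1.33 times Tgtp1 over 21 mice (median 1.06), while in mRNA Tgtp2 was at 1.67 to 89 times Tgtp1 (median 3.62). In AA vehicle mouse 3, for example, mRNA gave 1 Tgtp1 and 89 Tgtp2 counts, and footprints gave 34 and 43. The 2 footprint values are therefore best read as 1 measurement, and with the 2 genes' counts summed the log2 difference was -3.94 between diets in 5+3 mice and -3.06 between 5+3 and vehicle on the BCAA-free diet. Some relatives were counted mostly in footprints. Gbp10 of the Gbp6 cluster averaged 61.2 counts in footprints and 3.57 in the deeper mRNA libraries, and Gbp11 24.3 and 1.9. As a log2 ratio of the share of footprints to the share of mRNA this was 7.35 for Gbp10 and 6.93 for Gbp11, above the median of -0.92 over 12900 genes and inside their 5th to 95th percentiles of -3.63 to 7.86. Others, such as Gbp4 at -0.19 and Irgm2 at -0.10, lay near the members, so this ratio alone does not mark shared reads. The 10 members lay between -0.64 for Irgm1 and 2.28 for Tgtp1 on that scale. Footprint values of Tgtp1 and Tgtp2 are uncertain as to which copy they count. Gbp6, at 1.36 on that scale, averaged 82 footprint counts, and its relatives Gm43302 and Gbp10 averaged 78.5 and 61.2. Their footprint interactions of diet and 5+3 were nearly equal, at -3.33 ± 0.90, -3.29 ± 0.90 and -3.23 ± 0.91. Whether Gbp6 shares reads with these relatives was not tested, so its values may not be a separate measurement.

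**Figure D5:**
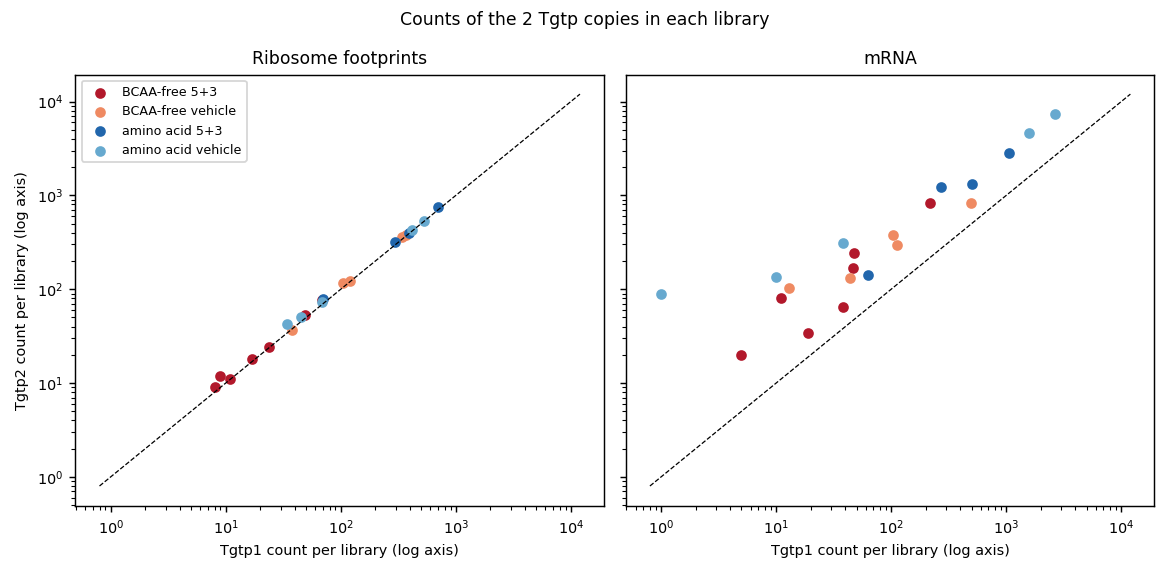
Counts of Tgtp2 against Tgtp1 in each of 21 footprint and 21 mRNA libraries (log axes), with a line of equal counts and points marked by group. Footprint points follow the line at 0.974 to 1.33 times, and mRNA points lie above it at 1.67 to 89 times.

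Upstream of the GTPases, Ifng, Ifnb1 and Ifnl2, the only interferon genes examined, were barely counted in the sorted cells. Ifnl2 had 2 counts in all mRNA libraries together and 2 in all footprint libraries. Ifng, the type II ligand, had 47 counts in all 21 mRNA libraries together, from 6 of them, and 4 counts in footprints, from 4 libraries. Ifnb1, a type I ligand, had none in any of the 42 libraries, against a 3-count floor of at most 0.0943 CPM in mRNA and 1.18 CPM in footprints. Of the receptor chains, Ifngr1 averaged 257 ± 25.9 footprint CPM in BCAA-free 5+3 and 183 ± 10.8 CPM in AA 5+3 mice, higher on the BCAA-free diet by 0.49 ± 0.10 on the log2 scale (edgeR adjusted p = 0.000727). Il10rb, a chain of the type III receptor, averaged 17.3 ± 2.45 and 24.4 ± 1.97 CPM in the same order a log2 difference of -0.49 ± 0.12 (edgeR adjusted p = 0.00244). Those were the 2 of 5 ligand and receptor genes tested that passed in 5+3 footprints, a share near the 28.3% of all genes that passed in either direction. Ifngr1 was thus higher in the comparison in which the GTPases were lower. Ifngr2, the other chain of the interferon-γ receptor, did not pass, with 339 footprint counts in all 21 libraries together. Ifnar1 and Ifnar2 did not pass either.

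The signalling relay was lower in the same comparison. Of 13 kinases, STATs and IRFs tested, 12 had lower footprints in BCAA-free than in AA 5+3 mice and none higher, with a median log2 difference of -1.01. Of all genes 15.8% were lower. This list and those that follow were chosen with earlier results of these data known, so their counts are not independent evidence. Irf1, a transcription factor that binds ISREs, averaged 19.5 ± 4.39 CPM in BCAA-free 5+3 and 63.4 ± 9.76 CPM in AA 5+3 mice (SD, n = 7 and 4), a log2 difference of -1.70 ± 0.21 (edgeR adjusted p = 1.53e-05). Stat2 (-1.33 ± 0.19), Irf9 (-0.92 ± 0.17), Irf2 (-1.01 ± 0.17) and Jak2 (-0.78 ± 0.18) were also lower, as was Jak1 (-0.30 ± 0.08), all with edgeR adjusted p under 0.05. In mRNA Irf1 was also lower (-1.28 ± 0.23, edgeR adjusted p = 0.00457). On the AA diet 1 of the 13 passed in footprints after 5+3, Irf8, a myeloid factor, at -1.78 ± 0.50 (edgeR adjusted p = 0.0417), a share near the 6.61% of all genes, and in vehicle mice the diet comparison gave 0 of 13, with 2.04% of all genes passing. The interaction was below 0 and passed for Stat2 (-1.24 ± 0.27), Irf1 (-1.28 ± 0.31) and Irf2 (-0.89 ± 0.23), with edgeR adjusted p of 0.00984, 0.019 and 0.0227, 3 of 13 where 3.8% of all genes passed in that direction.

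The remaining interferon genes followed in 5+3 footprints. All 19 other interferon-inducible GTPases that could be tested were lower on the BCAA-free diet, where 15.8% of all genes were, with a median of -2.30. They are fewer than 19 separate measurements, since near copies such as Gvin1 and Gm4070 had almost equal mean footprint counts (848 and 847). Nor are all shown to be separate from the 10 members. Gm43302 and Gbp10, at 78.5 and 61.2 counts, may share reads with Gbp6, at 82, which was not tested. They include Irgm2 (-2.08 ± 0.37, edgeR adjusted p = 0.000547), the third regulator of that class, and Gbp9 (-3.14 ± 0.54, adjusted p = 0.000411). Of 27 other interferon-γ targets 17 were lower and none higher, with a median of -0.70, led by Casp1 (-0.91 ± 0.12, edgeR adjusted p = 6.67e-06), the inflammasome protease, Parp14 (-2.24 ± 0.35, adjusted p = 0.00019) and Cxcl10 (-3.64 ± 0.60, adjusted p = 0.000227), a chemokine. Of 22 genes of a type I interferon signature 21 were lower, with a median of -1.51, led by Oas3 (-2.61 ± 0.31, edgeR adjusted p = 4.65e-06) and Ifit1 (-2.86 ± 0.39, adjusted p = 1.25e-05). The negative regulators Usp18 (-2.59 ± 0.40), Trim30a (-1.06 ± 0.15) and Ptpn6 (-0.60 ± 0.09), 3 of 7 tested, were lower as well, with edgeR adjusted p of 5.22e-05, 1.89e-05 and 2.22e-05. The partners of the GTPases on vacuoles, largely autophagy genes, were near the shares of all genes (15.8% lower and 28.3% in either direction), with 3 of 13 lower and 1 higher, Gabarapl1 at 0.87 ± 0.19 (edgeR adjusted p = 0.00142), and the median was -0.06. In vehicle mice 2.04% of all genes passed the diet comparison of footprints. It passed for 5 of the 22 type I genes, among them Ifit3 (-3.27 ± 0.48, edgeR adjusted p = 0.00112) and Oas1a (-0.91 ± 0.14, adjusted p = 0.00139). None of the 10 GTPases, the 19 relatives or the 27 interferon-γ targets passed. That the lists differ in this was not tested.

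Of 6492 genes with at least 10 footprint CPM on average and outside the interferon GTPases, those whose profiles over the 21 mice were most like the mean standardised profile of the 10 GTPases included Dtx3l (r = 0.968), Parp9 (0.957), Irf1 (0.955), H2-K1 (0.955), H2-T22 (0.954), H2-Q6 (0.949), H2-T-ps (0.945), Psme2 (0.944) and Parp14 (0.944). With group means removed, Dtx3l stood at 0.937 and Psme2 at 0.869. These correlations describe the 21 libraries, which share depth and group, and they were ranked on the same data.

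Markers of some other cells moved with the diet in 5+3 mice, where 15.8% of all genes had lower footprints on the BCAA-free diet. Mature neutrophil genes were well counted. Their summed footprints were 38.6, 88 and 422 CPM in the lowest, median and highest BCAA-free 5+3 mouse, and 193, 287 and 502 CPM in AA 5+3 mice. Their summed mRNA was 106, 228 and 1109 CPM in BCAA-free 5+3 mice, and 707, 1373 and 1910 CPM in AA 5+3 mice. By edgeR, footprints of 3 of 9 neutrophil genes (Mmp9, Ngp and Camp) and 6 of 7 erythroid genes were lower on the BCAA-free diet, and those of 1 of 7 macrophage genes, Adgre1, a share near that of all genes. Summed erythroid footprints were 68, 94.2 and 144 CPM in BCAA-free 5+3 and 207, 218 and 286 CPM in AA 5+3 mice, with no overlap. Summed footprints of resident macrophage genes were 128, 142 and 203 CPM in BCAA-free 5+3 and 182, 201 and 257 CPM in AA 5+3 mice, with overlap. BCAA-free 5+3 mouse 2 had the highest sum of the 10 GTPases in its group, 183 CPM, and mouse 3 the second highest, 151 CPM. Their neutrophil sums were 97.9 and 422 CPM, and their macrophage sums 191 and 203 CPM, in the same order. Of 19 T and NK cell genes only Nkg7 could be tested in footprints, and its difference there was -0.33 (edgeR adjusted p = 0.258). The summed mRNA of those 19 was 34.4, 89.3 and 94.7 CPM in the lowest, median and highest BCAA-free 5+3 mouse, and 53.6, 71.3 and 145 CPM in AA 5+3 mice, most of it Nkg7. Myeloid progenitor genes were abundant in both, with summed footprints of 8384 to 10940 CPM in BCAA-free 5+3 and 10687 to 13345 CPM in AA 5+3 mice. The part of these markers in the GTPase differences was not tested beyond these values.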

How the data were processed

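Each of 21 mice gave a Smart-seq2 mRNA library and a ribosome footprint library from 1 lysate. The authors deposited 2 tables of whole-number read counts per Ensembl gene and library. cutadapt, Bowtie2, STAR, SAMtools, featureCounts and the build GRCm38 (mm10) are named in the submitters' processing notes, while versions, strand setting and the treatment of multi-matching reads were not given in the sources used here, so reads of near copies and of overlapping genes could be split or lost. Groups came from the sample titles. No row named no gene, and 55141 of 55487 identifiers matched a symbol.

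Counts were analysed with edgeR 4.0.16 in R 4.3.3: TMM scaling, a filter on low counts (minimum count 10, minimum total 15), robust quasi-likelihood tests over 4 groups in 1 fit per library kind, and Benjamini-Hochberg adjustment over all genes tested, with a threshold of 0.05. Translational efficiency was the interaction of library kind and group with the mouse as a block, since the labels give both libraries to 1 mouse. Deviations from the group mean in an mRNA library correlated best with its own mouse's footprint library in 15 of 21 mice within the group, and in 8 of 21 among all mice (median r of 0.10). Scripts were tested on simulated data. The members and the gene lists were chosen with earlier results of these data known, and all 10 members are named; of each list, the genes with the smallest adjusted p are named, except 1 that is not reported here. Alternatives were median-ratio scaling, DESeq2 1.42.0, limma-voom (limma 3.58.1), no filter, only the groups compared, without the 4 mice apart, replicate blocks and each mouse left out. Floors of 3 counts cover counting error only.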

Additional observations from a re-analysis of the deposited data

Results flagged for a closer look

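In 9 of 80 sets of 4 to 7 mice, 1 mouse lay far from the others of its group for 1 of the 10 GTPases, where chance gives about 1 in 20, and all 9 were in mRNA. BCAA-free 5+3 mouse 2 was the highest of 7 for 5 genes, at 25.8 CPM for Gbp2, 4.01 CPM for Tgtp1, 15.3 CPM for Tgtp2, 58.4 CPM for Igtp and 2.93 CPM for Iigp1, with the next mouse at 10.6, 1.01, 3.67, 25.4 and 1.35 CPM. BCAA-free 5+3 mouse 3 was the highest of 7 for Gbp7, at 43.5 CPM with the next mouse at 21.8 CPM. BCAA-free vehicle mouse 5, one of the 4 that stood apart, was the highest of 5 for Tgtp1 (12.9 CPM, next 2.71 CPM) and Igtp (67.7 CPM, next 34.4 CPM). AA 5+3 mouse 3 was the lowest of 4 for Gbp5, at 10.5 CPM with the next mouse at 16.2 CPM. The 5 genes of BCAA-free 5+3 mouse 2 are not independent, since the genes vary together over mice.

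The footprint interaction of diet and 5+3 counted as lower for Gbp5 (-3.35 on the log2 scale) and Gbp6 (-3.33) in edgeR's quasi-likelihood fit. It contains the comparison treated as having guided the choice of the genes, so both calls are a description. The report gives the mice on which these 2 calls rest.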

How the results depend on the processing

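Lower footprints in BCAA-free than in AA 5+3 mice held for 9 or 10 of the 10 GTPases under every alternative run; Gbp3 was the one lost, without the filter (adjusted p = 0.0913), with a replicate block (0.0749) and without the 4 mice apart (0.0534). Other counts of the 10 moved more. Shares of all genes in the alternatives and in fits without 1 mouse are not given beside them. A change in the 10 is therefore not set apart from a change over all genes. For footprints of 5+3 against vehicle on the BCAA-free diet the count of 8 became 5 without the filter, 3 with a replicate block and 0 without the 4 mice apart. For the footprint interaction the count of 2 became 5 with DESeq2 and 0 without the filter, with a replicate block or without the 4 mice apart. For mRNA of the BCAA-free against the AA diet in 5+3 mice the count of 3 became 6 with DESeq2 or with only the groups compared, and 1 with a replicate block. For mRNA of 5+3 against vehicle on the BCAA-free diet the count of 2 became 1 with limma-voom, without the filter or with only the groups compared, and 0 without the 4 mice apart, where Gbp3 (0.047) and Tgtp2 (0.15) also turned above 0. The mRNA interaction gave 1 with DESeq2 in place of 0, and translational efficiency on the BCAA-free diet 3 without the filter and 1 with limma-voom in place of 0.

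Leaving out each mouse in turn gave 3 to 10 genes for footprints of 5+3 against vehicle on the BCAA-free diet, 9 to 10 for the diet in 5+3 mice and 0 to 9 for the interaction, and in mRNA 0 to 2 and 2 to 4 for the first 2 of these. Translational efficiency on the BCAA-free diet gave 0 to 1, without BCAA-free 5+3 mouse 3 or 6. In the other comparisons the count was 0 in each of these fits. Replicate numbers did not pair mice across groups: same-numbered deviations correlated at r from -0.45 to 0.45, and the replicate block changed calls as given here. Calls of single genes were recomputed where at least 1 gene passed, and the median over the genes in each comparison. The causes of these changes were not tested. Precision is limited by 4 to 7 mice a group and, in footprints of Gbp5, Gbp6 and Iigp1, by few counts.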
